A study of Ovis aries with 26 samples.

Results

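Glycolysis turns glucose into pyruvate through a chain of cytosolic enzymes, and glucose enters the cell through facilitative transporters of the SLC2A (GLUT) family. Hexokinases trap the sugar as glucose 6-phosphate, the middle enzymes rearrange and split it and recover energy, and lactate dehydrogenase interconverts pyruvate and lactate. Mammalian cleavage-stage embryos are known to rely mainly on pyruvate and lactate, and glucose uptake and use are known to increase around compaction and cavity formation. The genes described here are 10 members of this pathway, chosen by name for their function: the transporters SLC2A1 (GLUT1) and SLC2A3 (GLUT3), the hexokinases HK1 and HK2, and the enzymes GPI, ALDOA, GAPDH, PGK1, ENO1 and LDHA. All 10 were present among the 30186 genes of the deposited table, and all 10 passed the filter on low values, which left 15766 genes for testing.

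Poly(A) RNA of sheep oocytes and in vitro fertilized, cultured embryos was sequenced by a Smart-seq2 protocol after direct lysis, in 26 libraries of 8 stages. There were 2 libraries of MII oocytes, 4 of the 2-cell stage (2C), 3 of the 4-cell stage (4C), 4 of the 8-cell stage (8C) and 3 of the 16-cell stage (16C). Later stages were represented by 3 libraries of morulae (Morula), 3 of early blastocysts (EarlyB) and 4 of expanded blastocysts (ExpB). The labels give no breed, animal, number of embryos per library or pooling, so p-values reflect how far libraries of 1 stage scatter, and that scatter may be technical. Levels are FPKM, read fragments scaled by gene length and by library size, given as mean ± SD with n equal to the number of libraries of the stage. Differences are on the log2(FPKM + 1) scale with the standard error (SE) of a limma fit over all stages, and "called", "rose" and "fell" mean a Benjamini-Hochberg adjusted p under 0.05 over all tested genes and a difference of at least 1.

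Assigned reads, recovered from the steps of the FPKM values, ran from about 16000000 to 35600000 per library, lowest in EarlyB. The share of a library's summed FPKM on 13 mitochondrial protein genes went from 1.37% to 2.51% at 2C to 8C to between 16.0% and 18.0% in ExpB. The stage labels were read against marker genes. The summed FPKM of 7 oocyte markers went from 3487 to 3535 in MII libraries to 2.52 to 11.3 in ExpB, while that of 8 trophectoderm markers went from 8.63 to 11.2 to between 3332 and 7523. These bulk libraries cannot tell fewer cells of a type from less RNA per cell, and poly(A) tail length was not measured.

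The 10 genes changed in different steps and in different directions. From 2C to ExpB 8 of them rose and 1, LDHA, fell, against 30.7% and 23.6% of all tested genes called higher and lower. HK1 was the gene not called, at 7.91 ± 0.811 and 9.03 ± 1.49. The median difference of the 10 was 3.51, beside 0.23 for all tested genes. Counts and medians of lists are descriptions, since the genes were chosen with earlier results of these data known. Of 26 calls in the 7 successive steps, 19 (73.1%) lay in the 3 steps after 16C, where 85.5% of the calls of all tested genes lay.

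**Figure D1:**
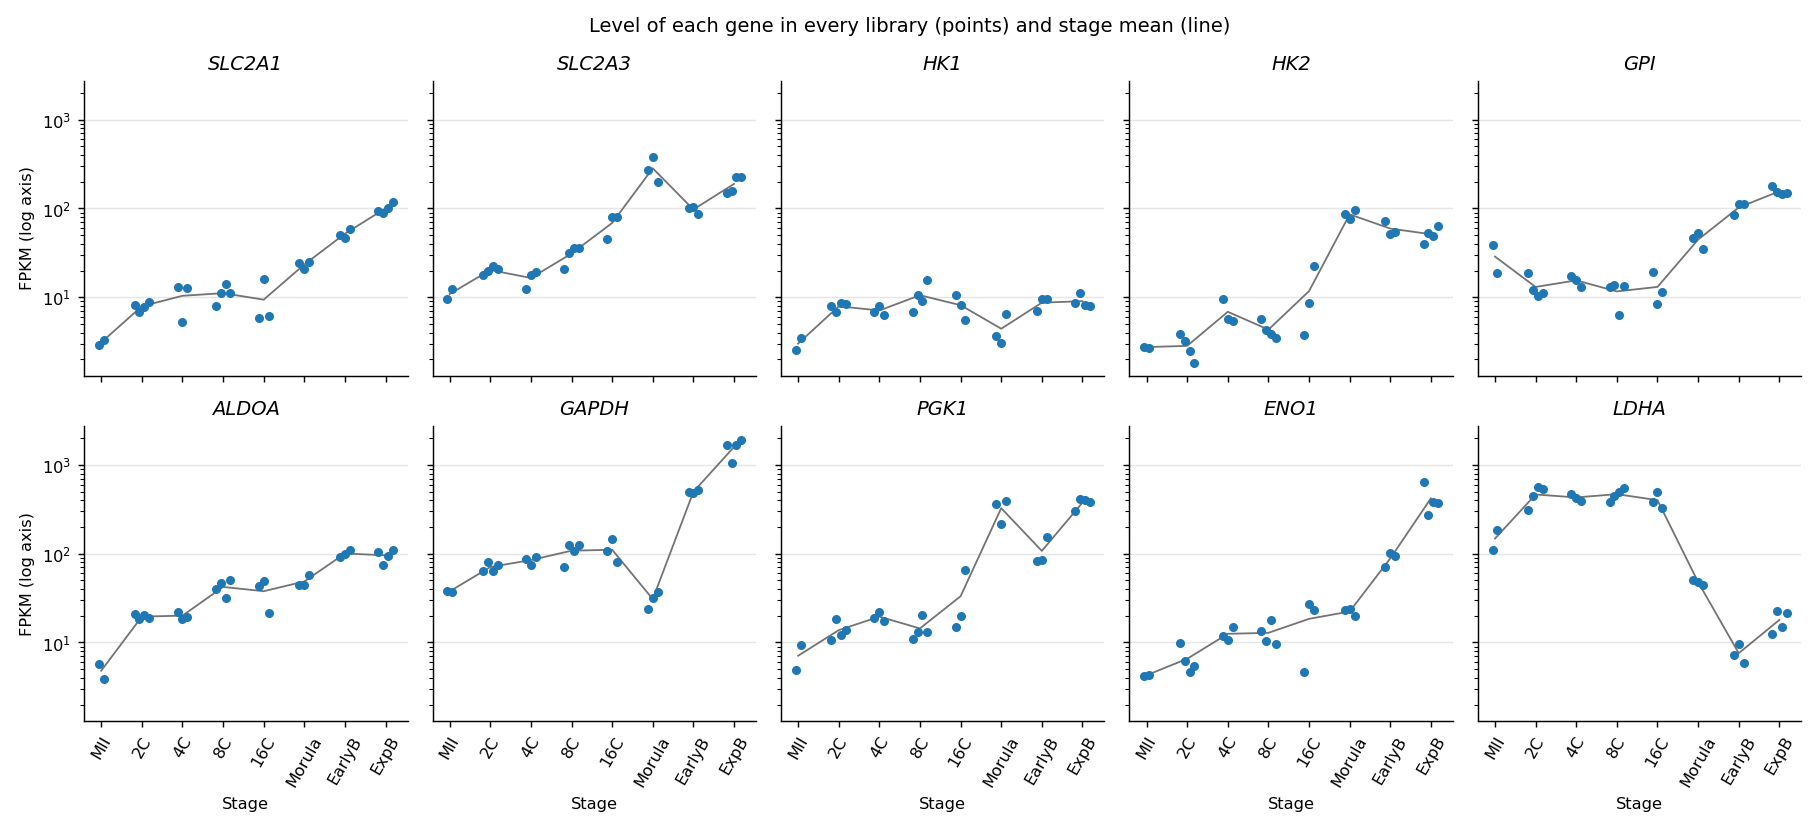
FPKM on a log axis (y) of each of the 10 genes in the 26 libraries (points) by stage (x), with the stage mean as a line. LDHA stands between 314 and 562 from 2C to 16C and at 22.8 or less in every blastocyst library, while GAPDH drops to between 24.0 and 36.9 in morulae and exceeds 1060 in every ExpB library.

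SLC2A1, the basal glucose transporter of most cells, was at 2.87 and 3.32 in the MII libraries and between 5.25 and 16.1 in every library from 2C to 16C. Morulae gave 24.6, 20.7 and 24.9, EarlyB 50.5, 46.9 and 58.5, and ExpB 92.6, 88.0, 101.5 and 119. Each of these last stages lay above the one before it with no overlap. The gene rose from 16C to Morula by 1.36 (SE 0.298, adjusted p = 0.0004) and from Morula to EarlyB by 1.12 (SE 0.298, adjusted p = 0.0037). From EarlyB to ExpB its difference of 0.93 had an adjusted p of 0.01 and fell short of the size required.

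SLC2A3, a transporter with a high affinity for glucose, followed another course. Its level was 9.46 and 12.3 in MII, 12.3 to 22.2 at 2C and 4C, 20.9 to 36.1 at 8C and 45.8 to 80.2 at 16C. In morulae it reached 197.0, 270.1 and 383.5, its highest mean of any stage. It rose from 8C to 16C by 1.11 (SE 0.245, adjusted p = 0.0031), with no overlap of the libraries, and from 16C to Morula by 2.02 (SE 0.262, adjusted p = 7.3e-07). It then fell by 1.48 (SE 0.262, adjusted p = 7.3e-05) to between 87.0 and 104 in EarlyB, and stood at 151 to 225 in ExpB, a range that overlaps that of morulae. The call from 8C to 16C was lost when 8C replicate 1 (difference 0.934), 16C replicate 2 (0.974) or 16C replicate 3 (0.975) was dropped.

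The hexokinases of the set also parted. HK1, the form of most tissues, was low throughout. It rose from 2.57 and 3.44 in MII to between 6.74 and 8.54 at 2C (difference 1.16, SE 0.272, adjusted p = 0.0075), and its mean stayed between 4.42 and 10.5 in all later stages. Its lowest later level was in morulae, at 3.09 to 6.56, and there it was lower than at 8C by a difference of -1.09 (SE 0.240, adjusted p = 0.00033). HK2, the inducible form found in growing cells, stood between 1.84 and 9.54 in every library from MII to 8C. At 16C its 3 libraries gave 3.74, 8.64 and 22.8, so that stage overlapped with 8C and was not called (adjusted p = 0.053). In morulae it was at 85.9, 76.2 and 95.5, higher than at 16C by 3.07 (SE 0.360, adjusted p = 1.8e-07) and, in mean FPKM, 19.9 times the 8C level. EarlyB libraries lay between 52.1 and 72.1, below all morulae, and ExpB libraries between 39.5 and 63.7, but neither step was called (adjusted p = 0.23 and 0.66).

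GPI, which converts glucose 6-phosphate to fructose 6-phosphate, was the 1 gene of the set called lower at 2C than in MII, where its libraries gave 38.9 and 18.5. The 2C libraries, at 10.3 to 18.6, overlapped with MII. It stood between 6.34 and 19.4 in every library from 4C to 16C. The gene then rose to between 35.3 and 52.5 in morulae (difference 1.75, SE 0.301, adjusted p = 2.8e-05) and to 83.4, 112.5 and 111.6 in EarlyB (1.19, SE 0.301, adjusted p = 0.0025). In ExpB it was at 145 to 177, above every EarlyB library, with a difference of 0.61 that was not called (adjusted p = 0.089).

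ALDOA, the aldolase that splits fructose bisphosphate, was called in 2 early steps. It was at 5.73 and 3.90 in MII and at 18.6 to 20.8 at 2C (difference 1.84, SE 0.249, adjusted p = 5.9e-05). It was at 18.6 to 22.1 at 4C and 32.1 to 50.8 at 8C, with no overlap (1.02, SE 0.220, adjusted p = 0.021). In morulae, at 44.3 to 57.1, it overlapped with 8C and 16C. It rose once more in EarlyB, to between 91.2 and 111.5 (1.04, SE 0.235, adjusted p = 0.00093), and was at 74.8 to 110.2 in ExpB. The rise at 8C is the least secure of these: its call was lost when any 4C library, 8C replicate 2 or 8C replicate 4 was left out (adjusted p = 0.09, 0.049 and 0.071 without 4C replicates 1, 2 and 3, and 0.052 and 0.098 without the 8C libraries). Of these 5 fits only the one without 4C replicate 2 kept an adjusted p under 0.05, with a difference of 0.97. The rise in EarlyB passed the p threshold without each library and dropped to a difference of 0.977, 0.983 or 0.964 without Morula replicate 1, Morula replicate 2 or EarlyB replicate 3. The EarlyB call was also lost on the TPM scale (difference 0.931) and with median-ratio scaling (0.932).

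GAPDH and PGK1 catalyse consecutive steps, the oxidation that makes 1,3-bisphosphoglycerate and the transfer of its phosphate to ADP, yet their levels crossed. GAPDH was at 37.2 and 38.0 in MII and between 64.3 and 147 from 2C to 16C. In morulae it was at 24.0, 31.5 and 36.9, below every library of the other stages. It fell from 16C to Morula by 1.79 (SE 0.240, adjusted p = 1.2e-06). It then rose to 480, 493 and 520 in EarlyB (difference 3.99, SE 0.240, adjusted p = 4.8e-11), 16.2 times the morula mean, and to 1063, 1695, 1697 and 1925 in ExpB (1.64, SE 0.225, adjusted p = 6.4e-06).

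PGK1 was at 4.90 and 9.28 in MII and between 10.7 and 22.3 in every 2C, 4C and 8C library. At 16C replicates 1 and 2 gave 14.9 and 19.8 and replicate 3 gave 65.0. In morulae it was at 216, 365 and 397, higher than at 16C by 3.50 (SE 0.382, adjusted p = 6.7e-08) and 22.6 times the 8C mean. It fell by 1.603 (SE 0.382, adjusted p = 0.0015) to 82.9, 85.4 and 154 in EarlyB and rose again to 299 to 418 in ExpB (1.85, SE 0.357, adjusted p = 0.00029). Morulae and ExpB overlapped. The order GAPDH above PGK1, seen in every library of the 7 other stages, was inverted in all 3 morula libraries.

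ENO1, the enolase that makes phosphoenolpyruvate, was called, among the successive steps, only in those after the morula. It was at 4.23 and 4.33 in MII, 4.69 to 9.89 at 2C and between 9.71 and 18.0 at 4C and 8C. The 16C libraries spread widely, at 4.68, 27.4 and 23.3, and morulae at 20.0 to 23.9 lay within that spread (adjusted p = 0.24). The gene rose to 70.8, 102 and 93.1 in EarlyB (difference 1.93, SE 0.410, adjusted p = 0.00052) and to 276, 375, 383 and 648 in ExpB (2.18, SE 0.383, adjusted p = 0.00011). From 2C to ExpB its mean FPKM increased 64.2 times, the largest ratio among the 10 genes.

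LDHA, the lactate dehydrogenase subunit known to favour pyruvate reduction, ran the other way. It was the highest of the 10 genes from MII to 16C, at 111 and 186 in MII and between 314 and 562 in every library from 2C to 16C. It rose at 2C by 1.65 (SE 0.266, adjusted p = 0.00031). It fell to 44.9, 48.0 and 50.8 in morulae (difference -3.02, SE 0.251, adjusted p = 1.3e-09) and again to 5.94, 7.17 and 9.62 in EarlyB (-2.53, SE 0.251, adjusted p = 4.6e-08). In ExpB it was at 12.4 to 22.8, a rise of 1.13 (SE 0.234, adjusted p = 0.0006) from EarlyB whose call was lost without EarlyB replicate 3 (difference 0.985). The ExpB mean was 25.9 times lower than the 2C mean.

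**Figure D2:**
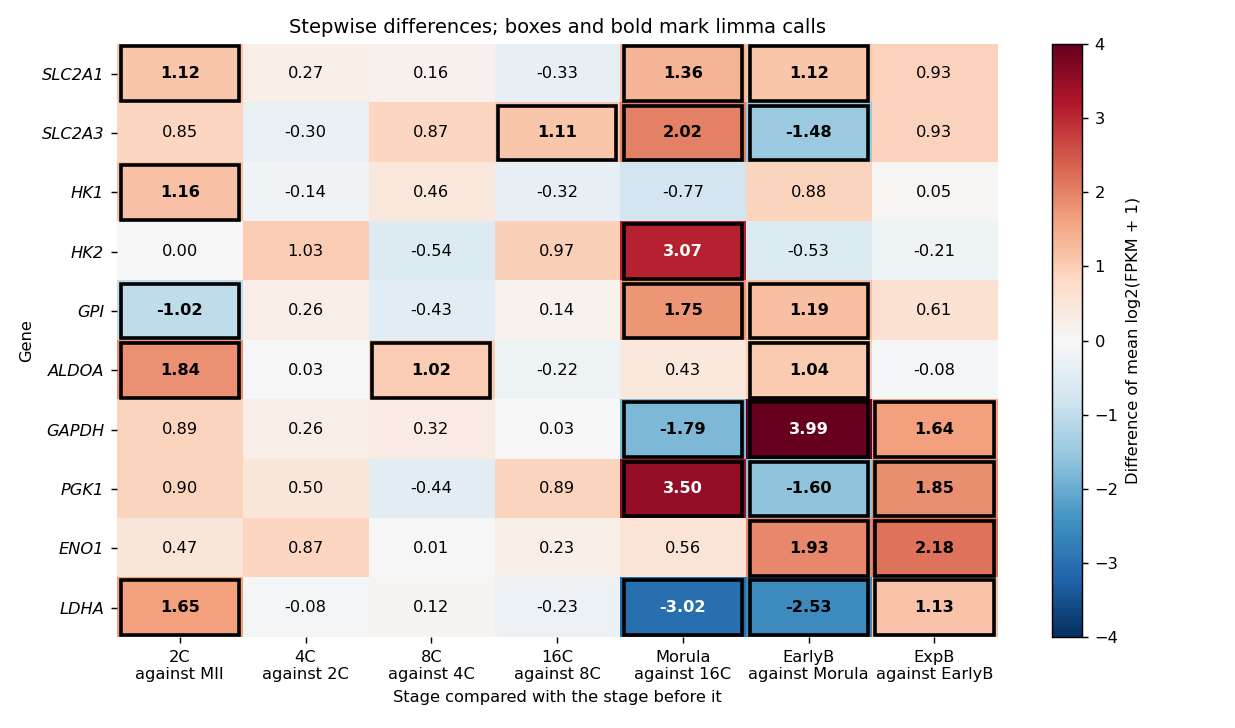
Difference of mean log2(FPKM + 1) between each stage and the one before it (columns) for the 10 genes (rows), coloured from blue (lower) to red (higher); boxes and bold figures mark calls of the limma fit. Calls are dense in the 3 steps from 16C to ExpB, with GAPDH and PGK1 of opposite sign in the steps into and out of the morula, and absent from 2C to 4C.

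The steps can also be read across the genes. From MII to 2C 4 of the 10 rose (ALDOA, LDHA, HK1 and SLC2A1) and 1 fell (GPI), against 4.44% and 2.01% of tested genes. The median difference was 0.89, beside 0.07 for all tested genes. The split of all genes turned round with scaling, to 2.70% higher and 3.92% lower after median-ratio scaling and 2.29% and 2.81% after quantile normalization. With MII replicate 1 left out only ALDOA was still called, beside 1.02% of all genes higher and 0.324% lower, with adjusted p of 0.3, 0.22, 0.79 and 0.051 for SLC2A1, HK1, GPI and LDHA. The call of SLC2A1 was also lost without MII replicate 2 or 2C replicate 4, with median-ratio scaling, with quantile normalization and with the replicate block. That of GPI was also lost on the TPM scale, with no filter on low values, with the replicate block, or without 2C replicate 2, 3 or 4. That of HK1 was also lost under both of these scalings (differences 0.96 and 0.846). In the same step the summed FPKM of 11 cumulus and granulosa cell markers was higher, at 17.5 to 25.0 in MII and 47.2 to 233 at 2C. At 4C the sum was 137 to 544. Only 1 of the 8 markers tested was called higher at 2C than in MII, and 0 were called lower. Of the 11 markers 3 in MII and 4 at 2C were at an FPKM of 1 or more in every library, and AMH was at 0 in both MII libraries. Their part in the result was not tested.

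Between 2C and 4C none of the 10 was called in limma, where 0.00634% of tested genes were, and 2 of the 10, HK2 and ENO1, had an unadjusted p under 0.05, as did 8.43% of all tested genes. From 4C to 8C ALDOA alone rose and none fell, against 0.577% and 0.33% of tested genes. From 8C to 16C SLC2A3 alone rose and none fell, against 5.54% and 2.01%. Without 16C replicate 1 there were 3 calls in that last step, SLC2A3, HK2 and PGK1, beside 7.89% of all genes higher and 3.41% lower, with adjusted p of 0.00078 for HK2 and 0.015 for PGK1. That library had the lowest level of HK2, PGK1, ENO1 and SLC2A3 at 16C, and replicate 3 the highest of HK2 and PGK1.

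From 16C to Morula 5 genes rose (PGK1, HK2, SLC2A3, GPI and SLC2A1) and 2 fell (LDHA and GAPDH), against 28.1% and 15.0% of all tested genes, and the median of the 10 was 0.96 beside 0.32. Each of the 7 passed in every alternative fit, including those without any single library. Against 8C, morulae had 5 genes that rose and 3 that fell, HK1 being added to LDHA and GAPDH, against 30.6% and 19.1%. The call of SLC2A1 in that comparison was lost with each of 3 other scalings, the lowest difference being 0.59 on the TPM scale, and without 8C replicate 1, Morula replicate 1 or Morula replicate 3. That of HK1 was lost without 8C replicate 4, Morula replicate 1 or Morula replicate 2. The split of all tested genes in the step from 16C depended on the scaling, with 4437 higher and 2364 lower as deposited and 3054 and 3263 after quantile normalization, which shifted the all-gene median to -0.01. There the set had 5 higher and 3 lower, HK1 joining the genes that fell.

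From Morula to EarlyB 5 rose (GAPDH, ENO1, GPI, SLC2A1 and ALDOA) and 3 fell (LDHA, PGK1 and SLC2A3), against 14.7% and 12.4%, and the median of the 10 was 0.96 beside 0.03. From EarlyB to ExpB 4 rose (ENO1, PGK1, GAPDH and LDHA) and 0 fell, against 4.65% and 13.1%. The median of the 10 in that last step was 0.93, whereas the median of all tested genes was -0.30. With median-ratio scaling, which moved the latter to -0.08, 6 of the 10 rose, SLC2A1 and SLC2A3 being added, against 7.97% of all genes higher and 5.93% lower. Quantile normalization gave 7.97% and 6.65% of all genes, so the excess of lower calls as deposited turned round with either scaling. Of 8 trophectoderm markers 6 were called higher and 0 lower from Morula to EarlyB, against 14.7% and 12.4% of all tested genes. From EarlyB to ExpB 3 were called higher and 2 lower, against 4.65% and 13.1%. All 8 were at an FPKM of 1 or more in every EarlyB and ExpB library, and their sum went from 103 to 153.5 at the morula stage to between 2005 and 2627 in EarlyB. The sum of 6 inner cell mass markers lay between 76.7 and 125 in all libraries from the morula on. The level sum hid single changes, as 1 of the 6 was called higher and 1 lower in each of these steps. The sum of the cumulus and granulosa markers was 40.5 to 86.8 at the morula stage, 264 to 300.1 in EarlyB and 738 to 1194 in ExpB. Of these 11 markers 2 were at 1 or more in every library of each blastocyst stage. PTGS2 alone gave 275 ± 18.1 of that sum in EarlyB and 984 ± 186 in ExpB and was the 1 of 8 tested markers called higher in each step, while NR5A2 and STAR were called lower from Morula to EarlyB. Their part in the result was not tested.

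Together the 10 genes held 0.0531% ± 0.0143 of a library's summed FPKM in MII, between 0.144% and 0.171% in the means of the 6 stages from 2C to EarlyB, and 0.468% ± 0.0684 in ExpB. As summed FPKM the 10 genes were not level, at 627 ± 110 at 2C, 917 ± 18.8 in morulae and 1122 ± 75.3 in EarlyB, while the sum over all genes also rose. The nearly level share from 2C to EarlyB hid an exchange of genes. LDHA made up 51.2% to 59.9% of the set's FPKM in the 16C libraries, 4.91% to 5.42% in morulae and 0.383% to 0.985% in ExpB. In morulae PGK1 and SLC2A3 held 35.4% ± 10.1 and 31.0% ± 10.7 and GAPDH 3.36% ± 0.744. GAPDH made up 44.4% on average in EarlyB and 52.4% in ExpB.

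**Figure D3:**
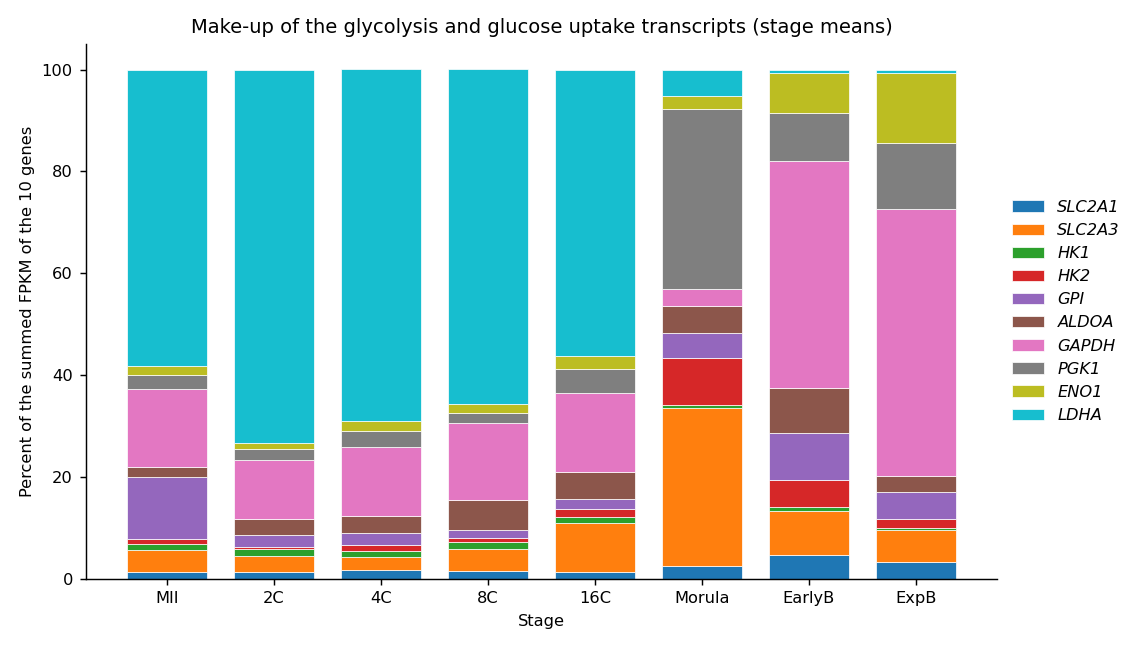
Percent of the summed FPKM of the 10 genes (y) contributed by each gene (colours), as the mean over the libraries of each stage (x). LDHA holds the largest part from MII to 16C, PGK1 with SLC2A3 in morulae, and GAPDH in both blastocyst stages.

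Pairs of genes that can serve the same step were set against each other within each library, where library scaling cancels apart from the added 1. Their log2 ratios were compared between 2C and ExpB by exact two-sided permutation tests, 3 in all with Benjamini-Hochberg adjustment, and 4 against 4 libraries allow no p below 0.0286. HK2 over HK1 went from -1.24 ± 0.415 to 2.37 ± 0.356, a shift of 3.61 (exact p = 0.0286, adjusted p = 0.0429), higher in 4 of 4 ExpB libraries than in any 2C library. Its highest mean was in morulae, at 4.05 ± 0.325. SLC2A3 over SLC2A1 was 1.26 ± 0.193 at 2C and 0.89 ± 0.182 in ExpB, a difference of -0.37 that did not pass (exact p = 0.0571, adjusted p = 0.0571). Between those stages, where it was not tested, it stood at 2.84 ± 0.624 at 16C and 3.50 ± 0.613 in morulae, and the lowest of these 6 libraries, at 2.24, lay above the highest of all other stages, at 1.62.

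LDHB, the partner subunit known to favour lactate oxidation, was not called in either step in which LDHA fell, with differences of -0.60 (adjusted p = 0.0034) into the morula and 0.86 (adjusted p = 0.00021) out of it. At 2C it lay between 160.7 and 180.0, in morulae between 91.5 and 112, and in EarlyB between 169 and 216. The ExpB libraries gave 1997, 1871, 2200 and 1627, a rise (difference 3.35, SE 0.156, adjusted p = 1.3e-12). LDHA over LDHB was between 0.96 and 1.70 in every library from MII to 16C. Morulae had -1.09 ± 0.219, early blastocysts -4.48 ± 0.481 and expanded blastocysts -6.70 ± 0.540. From 2C to ExpB the log2 ratio shifted by -8.09 (exact p = 0.0286, adjusted p = 0.0429), lower in 4 of 4 ExpB libraries. The ratio was above 0 in all 16 libraries up to 16C and below 0 in all 10 later ones.

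**Figure D4:**
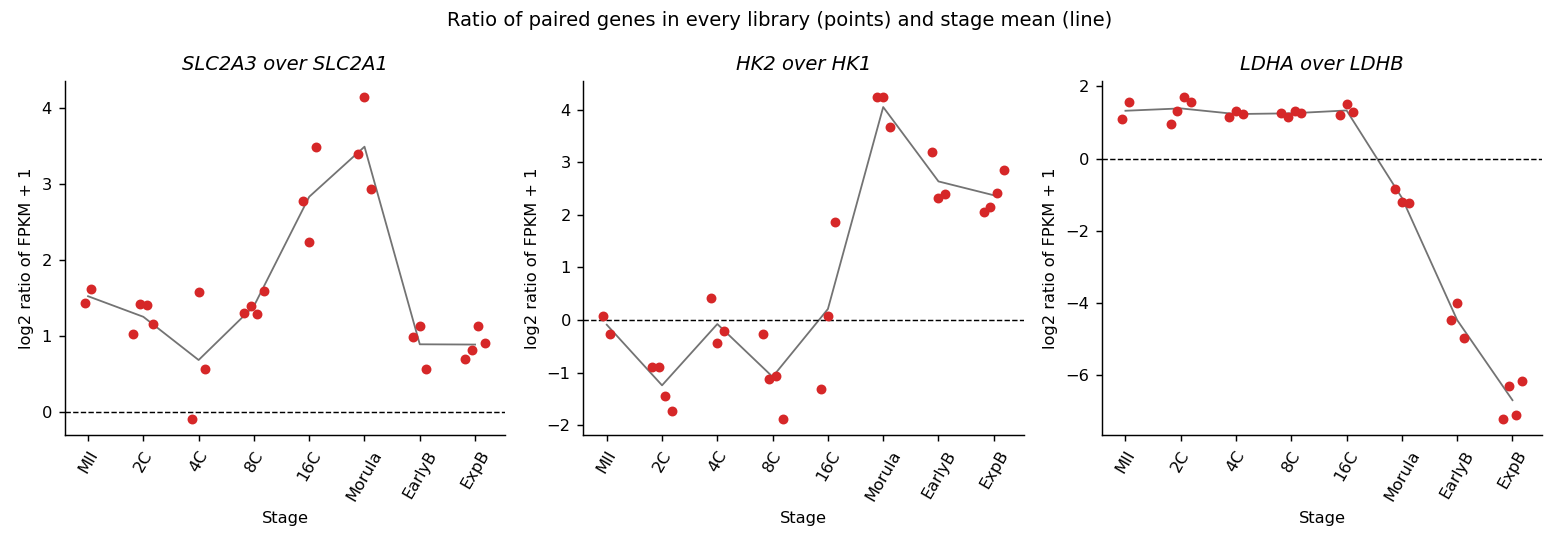
Log2 ratio of FPKM + 1 (y) for SLC2A3 over SLC2A1, HK2 over HK1 and LDHA over LDHB in each library (points) by stage (x), with the stage mean as a line and equality dashed. HK2 over HK1 peaks in morulae at a mean of 4.05, and LDHA over LDHB lies above 0 up to 16C and below 0 from the morula on.

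Of 12 other enzymes of glycolysis tested, 6 were higher and 2 lower in ExpB than at 2C, against 30.7% and 23.6% of all tested genes. In the step from 16C to Morula 4 were higher and 2 lower, against 28.1% and 15.0%. Among them was PKM, the pyruvate kinase of most tissues, from 16.7 ± 1.72 to 74.96 ± 22.7 (adjusted p = 6.1e-07), and the mutase PGAM1, from 12.8 ± 5.50 to 46.3 ± 6.63 (adjusted p = 6.3e-06). TPI1, triosephosphate isomerase, rose in the later steps, from between 1.11 and 2.64 in morulae to 9.94 ± 0.671 in EarlyB (adjusted p = 9.3e-05) and 44.9 ± 16.5 in ExpB (adjusted p = 3.1e-05). BPGM, which makes 2,3-bisphosphoglycerate, fell from 159 ± 32.8 at 2C to 3.15 ± 0.560 in ExpB (adjusted p = 1.2e-16). Of the phosphofructokinases PFKL rose from 1.79 ± 0.714 in morulae to 10.9 ± 2.86 in EarlyB (adjusted p = 5e-07).

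Of 6 other hexose transporters tested, 3 were higher and 1 lower in ExpB than at 2C, against the same 30.7% and 23.6%. The fructose transporter SLC2A5 was below 1 on average up to 16C and at 9.03 ± 2.12 in morulae (adjusted p = 1.7e-11 against 16C), and SLC2A8, an intracellular hexose transporter, reached 14.2 ± 2.72 in EarlyB (adjusted p = 0.00013 against Morula). Genes of pyruvate and lactate handling (16 tested) had 9 higher and 2 lower between those stages, again against 30.7% and 23.6%. BSG, a chaperone of some monocarboxylate transporters, rose from 6.08 ± 1.78 at 16C to 29.5 ± 7.32 in morulae (adjusted p = 1.6e-07) and 193 ± 10.6 in EarlyB (adjusted p = 1.3e-08). The transporter SLC16A7 went from 0.825 ± 0.585 in morulae to 14.4 ± 1.79 in EarlyB (adjusted p = 6.1e-06). MPC2 of the mitochondrial pyruvate carrier rose from 9.84 ± 1.25 at 16C to 127 ± 33.8 in morulae (adjusted p = 4.1e-10). PDK3, a kinase that inhibits pyruvate dehydrogenase, fell from 39.5 ± 14.6 in morulae to 9.91 ± 1.19 in EarlyB (adjusted p = 4.2e-06).

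In the pentose phosphate pathway (8 tested) 4 genes were higher and 2 lower in ExpB than at 2C, against 30.7% and 23.6% of all tested genes. TKT, transketolase, was at 1.11 ± 0.631 at 8C, 33.0 ± 39.0 at 16C (adjusted p = 4.7e-06) and 207 ± 20.5 in morulae (adjusted p = 2.2e-06), and TALDO1, transaldolase, rose from 27.8 ± 9.24 at 16C to 276 ± 66.7 in morulae (adjusted p = 9.1e-11). Among 15 regulators 5 were higher and 3 lower, shares of the list near those of all genes. HIF1A is a transcription factor known to drive glycolytic genes in low oxygen. Its RNA fell from 128 ± 34.5 at 16C to 17.6 ± 5.79 in morulae (adjusted p = 5.2e-09), in the step where PGK1 and HK2 rose. The protein was not measured, and a part of HIF1A in the course of these genes was not tested. MYC fell in the same step, from 19.8 ± 16.8 to between 0.574 and 2.44 (adjusted p = 4e-06), whereas MYCN rose in it, from 1.38 ± 0.186 to 4.77 ± 1.28 (adjusted p = 1e-06), and again to 12.2 ± 3.25 in EarlyB (adjusted p = 4.6e-06). Gluconeogenesis and glycogen genes (13 tested) had 5 higher and 3 lower, and polyol and hexosamine genes (9 tested) had 2 higher and 3 lower, against 30.7% and 23.6%. PCK2, the mitochondrial carboxykinase, rose from 0.467 ± 0.177 in morulae to 6.09 ± 2.54 in EarlyB (adjusted p = 7.5e-07).

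GAPDH is often used to normalize quantitative PCR, as are 17 further genes listed here for comparison. Its stage means spanned 5.64 on the log2(FPKM + 1) scale, more than 96.8% of tested genes, whose median span was 2.00. RPS18 and H2AZ1 spanned more, at 6.76 and 7.03. ACTB spanned 4.92 and PPIA 3.26, while YWHAZ, HPRT1, TBP and GUSB spanned 1.94, 1.76, 1.34 and 0.77, the 4 values under the median. The stage means of GUSB were low, from 1.17 to 1.943 on that scale, where the added 1 narrows a span. Among the genes of the set HK1 spanned 1.48 and each of the other 9 at least 3.69.

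**Figure D5:**
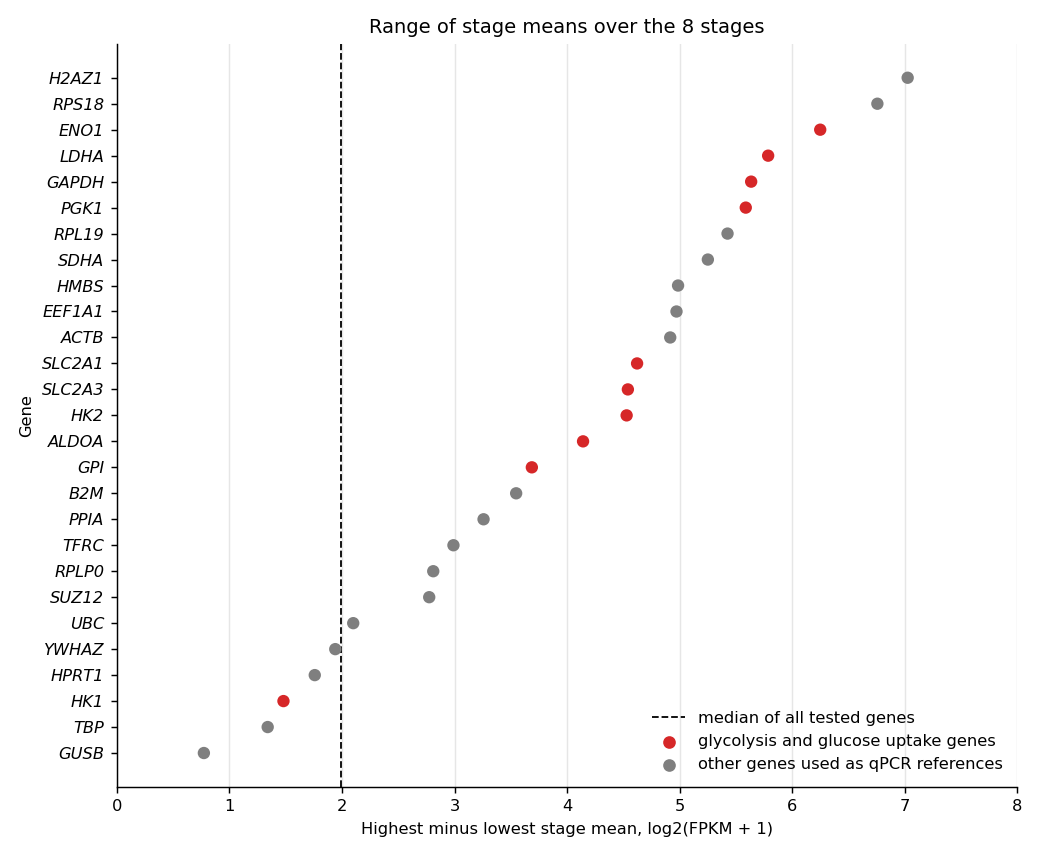
Highest minus lowest stage mean on the log2(FPKM + 1) scale (x) for the 10 glycolysis and glucose uptake genes (red) and 17 other genes used as PCR references (grey), ordered by value, with the median of all tested genes dashed. GAPDH lies at 5.64, and 5 genes lie left of the median of 2.00.

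The patterns were last compared over the 26 libraries by Pearson r of log2(FPKM + 1), as descriptions without a test, since libraries of a stage share their stage and depth. LDHA was negatively correlated with 8 of the 9 others, most with GPI (r = -0.947). HK2, PGK1 and SLC2A3 were alike, with r of 0.939 for HK2 and PGK1 and 0.921 for SLC2A3 and PGK1, and so were SLC2A1 and ENO1 (0.945). GAPDH had r of 0.532 with PGK1 and 0.882 with ENO1. Among all tested genes with a stage mean of at least 5, those most like LDHA were PRDX6, an antioxidant peroxidase, CLDND1 and CDK17 (0.986, 0.985 and 0.984), and those most like HK2 were OSGEPL1, ETNK1 and AFF4 (0.985, 0.983 and 0.982). Closest to PGK1 was ATP6V1A, a subunit of the proton pump of lysosomes (0.979), closest to SLC2A3 the chaperone HSPA8 (0.973), and closest to ENO1 the cyclophilin PPIB (0.967). SLC2A1 was most like GPX4 (0.964), GPI most like ROMO1 (0.975), ALDOA most like the chaperonin subunit CCT3 (0.967) and HK1 most like OSBPL2 (0.838).

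GAPDH was most like LOC114110581 (r = 0.996), a protein-coding entry of RefSeq without a gene symbol of its own, whose FPKM was 9.46% to 20.0% of that of GAPDH in every library. It followed GAPDH into the morula dip, from 16.6 ± 4.56 at 16C to 4.98 ± 0.160 in morulae and 60.9 ± 6.27 in EarlyB. Genes of this set are known to have processed copies in mammalian genomes, and how reads shared with such copies were counted is not given in the sources used here, so levels of GAPDH are uncertain to that extent.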

How the data were processed

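The authors deposited 1 table of FPKM for 26 libraries, with a column per library and no positions. Per the submitters' processing notes, the tools included featureCounts 2.0.1, SAMtools 1.9, HISAT2 2.1.0 and fastp 0.23.4. Build, annotation and treatment of multiply mapped reads: not given in the sources used here. All 10 symbols also occur in RefSeq's sheep gene table (ARS-UI_Ramb_v3.0), from which no coordinates were taken.

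Stages came from the sample titles. All libraries entered 1 fit of stage means to log2(FPKM + 1) in limma 3.58.1 (R 4.3.3), moderated with a trend on mean level (18 residual degrees of freedom, 4.6 prior), with 9 contrasts. These were the 7 successive steps, Morula against 8C and ExpB against 2C. A gene was tested where 2 or more libraries reached an FPKM of 1. The script was tested on simulated data. Ratios were tested by exact permutation in SciPy 1.17.1.

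Depth was read from 1739 small RNA genes, where 99.7% to 100.0% of values of up to 20 reads were whole within 0.05 reads. Reads carry no molecular identifiers, so depth gives no interval for molecules.

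All 10 genes are named. From each companion list, at most 4 called genes per contrast were named, those with the largest absolute difference, and the 3 most alike genes per member were ranked by Pearson r. The members and lists were chosen with earlier results of these data known. Alternatives were another pseudocount (0.1), no filter, 3 other scalings, fits of only the compared stages, a replicate block, and each library left out in turn. One gene of a companion list is not reported here by name.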

Additional observations from a re-analysis of the deposited data

Results flagged for a closer look

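GPI in 8C replicate 3 was at an FPKM of 6.34, while the other 8C libraries lay between 13.0 and 13.9. Its gap to the nearest library was 0.919 of the stage's range on the log2(FPKM + 1) scale, above the critical value of 0.829 for 4 libraries. The 3 stages with 4 libraries gave 30 such groups for the 10 genes, of which 1 was singled out, and chance alone singles out about 1 in 20. The cause was not tested.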

How the results depend on the processing

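Over 33 alternative fits, none of the 90 differences of the 10 genes that was called changed its direction. Of 2970 refitted values 2909 kept their side of the threshold, 44 lost a call and 17 gained one. For any contrast, most of these fits drop a library of neither compared stage, which leaves the difference itself unchanged. The count of kept values was thus largely fixed in advance and is no measure of stability. From 16C on, the calls per step stayed within 1.5 times their number. The earlier steps did not: from MII to 2C the 5 calls became 3 with median-ratio scaling, 3 with quantile normalization, 3 with the replicate block, and 1 to 5 with a library left out. From 4C to 8C the 1 call became 0 with either of those scalings, with only those stages fitted and with the replicate block, and 0 to 2 with a library left out. From 8C to 16C the 1 call became 2 with median-ratio scaling and 0 to 3 with a library left out. Where a stage is left with 1 library, that library is assumed to vary like the others. The ratio shifts of 3.613 (HK2 over HK1) and -8.088 (LDHA over LDHB) had an adjusted p of 0.125 in a sign-flip test with the replicate block. With 4 pairs that test cannot give a p below 0.125 and so could not pass. The 2 shifts ran from 3.452 to 3.73 and from -8.263 to -7.913 with a library left out. Their adjusted p was then from 0.057 to 0.086, where 3 against 4 libraries cannot pass. The labels do not say whether the replicate numbers pair the libraries. Of 80 pairs of same-numbered libraries of different stages, 13 had deviations correlated above 0.1, with a median of 0.00443. Of 214 pairs with different numbers 21 did, with a median of -0.00478. Depth limits little for these genes, whose lowest value was an FPKM of 1.84.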
